A study of Mus musculus with 7 samples.

Results

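The transcription factors that set retinal ganglion cell fate were followed in bulk RNA-seq of E16 mouse retina after deletion of *Ptbp1*. The 10 genes *Atoh7*, *Pou4f1*, *Pou4f2*, *Pou4f3*, *Isl1*, *Eomes*, *Tbr1*, *Ebf1*, *Ebf2* and *Ebf3* were taken by name from a table of 48440 genes, and each name matched 1 row. They are described in the order in which they act, from *Atoh7* in progenitors to the factors of late ganglion cell subtypes. Retinal ganglion cells are the neurons that carry the output of the retina to the brain and are among the first neurons born there. *Atoh7*, a basic helix-loop-helix factor, is switched on for a short time in progenitors that leave the cell cycle and makes them competent to become ganglion cells. The LIM-homeodomain factor *Isl1* and the POU-homeodomain factor *Pou4f2* act downstream of it and together turn on the ganglion cell program, while *Pou4f1*, *Pou4f3*, *Eomes*, *Tbr1* and the Ebf genes act in differentiating ganglion cells or in subsets of them.

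All mice carried a Chx10-Cre transgene, whose promoter is active in retinal progenitors from early neurogenesis, so cells outside that lineage keep their *Ptbp1* alleles. Control retinas with the genotype Chx10Cre (WT) had no floxed allele, Chx10-Cre;Ptbp1lox/WT retinas (Het) had 1, and Chx10-Cre;Ptbp1lox/lox retinas (KO) had 2, with loxP sites around the *Ptbp1* promoter and its initial exon. *Ptbp1* encodes an RNA-binding repressor of neuronal exons, and the study asked what its loss does to progenitors of the embryonic retina. Each library was made from retinas pooled by genotype, which gave 1 WT library of 6 retinas, Het1, Het2 and Het3 of 5, 5 and 6, and KO1, KO2 and KO3 of 4, 4 and 6. The sources used here do not say whether the pools came from separate litters, so p-values measure the spread between these pools. The WT library has no replicate, and any test that includes it assumes that it varies like the others.

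Levels are counts scaled to library size (CPM) after TMM normalization, and errors are SDs over 3 libraries. KO was compared with Het by edgeR's quasi-likelihood test over the 20019 genes that passed its expression filter, and all 10 factors passed it. Calls required a Benjamini-Hochberg adjusted p under 0.05 together with a change of more than 1.2-fold either way (0.263 on the log2 scale). The libraries held 120593979 to 171117305 counts on genes, and the factors 249 (*Tbr1*, Het2) to 40999 (*Pou4f1*, Het1) counts per library. Counting error was thus small beside the differences between pools for the abundant factors. It was a larger part for low ones such as *Ebf2*, with 591 to 1038 counts per library. *Ptbp1* was at 381 CPM in WT, at 210, 219 and 234 CPM in Het1 to Het3, and at 27.9, 6.04 and 46.9 CPM in KO1 to KO3. The retinal gene *Six3* (440 to 506 CPM) and the ganglion cell markers *Rbpms* (127 to 142 CPM) and *Slc17a6* (50.8 to 56.9 CPM) were present in every library. Het1 stood apart by skeletal muscle RNA: 14 muscle genes summed to 344 CPM there and to 9.63 to 13.0 CPM in the other 6 libraries. Lens and pigment epithelium genes summed to 546 CPM in Het1 and to 27.0 to 142 CPM in the others. Of the 14 tested, 7 were highest in Het1. Pigment genes made most of the Het1 sum, with *Pmel* at 321 CPM in Het1, 15.4 CPM in Het2 and 34.3 CPM in Het3. Among the Het libraries the lens gene *Cryaa* went the other way, at 16.2 CPM in Het1, 45.1 in Het2 and 63.5 in Het3.

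The genes lie on 9 chromosomes of GRCm38. *Atoh7* is a gene of a single exon at chr10:63099651-63101279 on the plus strand, 16.75 Mb from *Ptbp1* on the same chromosome. The other genes with a change or a near change are *Isl1* at chr13:116298281-116309689 (minus strand), *Pou4f2* at chr8:78433010-78436645 (minus), *Tbr1* at chr2:61802930-61814114 (plus), *Ebf2* at chr14:67233292-67430918 (plus) and *Ebf3* at chr7:137193673-137314445 (minus). *Atoh7* binds E-boxes, the hexamer CANNTG, and such hexamers were sought on both strands in the 250 bases before the start of each gene in RefSeq's GRCm38.p6 models. A window was given for 8 of the 10 factors, not for *Pou4f3* or *Ebf2*, and 5 of the 8 held an E-box (*Atoh7*, *Pou4f1*, *Isl1*, *Tbr1*, *Ebf1*), while 66.2% of 32851 windows of all genes did. RefSeq places the start of *Atoh7* downstream of GENCODE. Its start of *Tbr1* is also that of a GENCODE transcript, downstream of the first base GENCODE gives the gene. The stretches of both thus lie within an annotated GENCODE exon (for *Tbr1*, of a noncoding transcript). The stretches of 30 bases printed here, 5′ to 3′ on the gene's strand with E-boxes in capitals, show that hexamer in a factor that fell (*Atoh7*, *Isl1*), in one that did not pass the test (*Pou4f1*) and in one that rose (*Tbr1*).
Atoh7, chr10:63099711-63099740, plus strand: gcccgccCACCTGccacCACCTGttccctc
Isl1, chr13:116309774-116309803, minus strand: tgataatcagaaCAGCTGcgccgcgcgccc
Pou4f1, chr14:104468100-104468129, minus strand: gacagacggagaCAGCTGctgtctgtcagc
Tbr1, chr2:61804395-61804424, plus strand: gcgaccaggagcCAGGTGattatcctaatt
The printed sites of *Isl1* and *Pou4f1* are CAGCTG, which 13.0% of all windows held. Since *Isl1* and *Pou4f2* both act downstream of *Atoh7*, their windows are shown at length (that of *Isl1* up to the base where the GENCODE exon begins), and that of *Pou4f2* holds no E-box.
Isl1, chr13:116309690-116309938, minus strand: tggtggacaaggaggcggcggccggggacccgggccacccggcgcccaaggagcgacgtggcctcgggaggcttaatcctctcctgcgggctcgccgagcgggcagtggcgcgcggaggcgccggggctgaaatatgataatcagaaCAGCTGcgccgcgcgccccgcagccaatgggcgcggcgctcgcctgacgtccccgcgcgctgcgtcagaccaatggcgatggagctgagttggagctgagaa
Pou4f2, chr8:78436648-78436897, minus strand: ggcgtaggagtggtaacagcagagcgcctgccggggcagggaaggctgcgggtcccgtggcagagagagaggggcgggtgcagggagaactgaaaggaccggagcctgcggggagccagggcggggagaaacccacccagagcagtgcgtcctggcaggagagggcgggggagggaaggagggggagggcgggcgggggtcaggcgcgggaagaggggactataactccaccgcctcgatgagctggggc
The homeodomain hexamer ATTAAT was in the windows of *Eomes* and *Tbr1* and in 4.39% of all windows. These matches describe the letters of the windows alone.

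Of the 10 factors, 4 were differentially expressed between Het and KO, with *Atoh7* and *Isl1* lower and *Tbr1* and *Ebf2* higher in KO. Over all genes tested 7.22% were called, 4.01% higher and 3.21% lower in KO. For 6 factors no Het library overlapped a KO library, the 4 called ones and the lower *Pou4f2* and *Ebf3*, against 36.3% of all genes tested. The same 6 had an unadjusted p under 0.05, as did 29.7% of all genes tested. The median log2 fold change of the 10 factors was -0.065 and that of all genes tested -0.0047. *Pou4f1*, *Pou4f3*, *Eomes* and *Ebf1* overlapped between the groups. For each of the 6 factors without overlap the WT library lay on the side of Het. In whole retina, fewer cells that express a gene and less RNA per cell cannot be told apart.

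**Figure D1:**
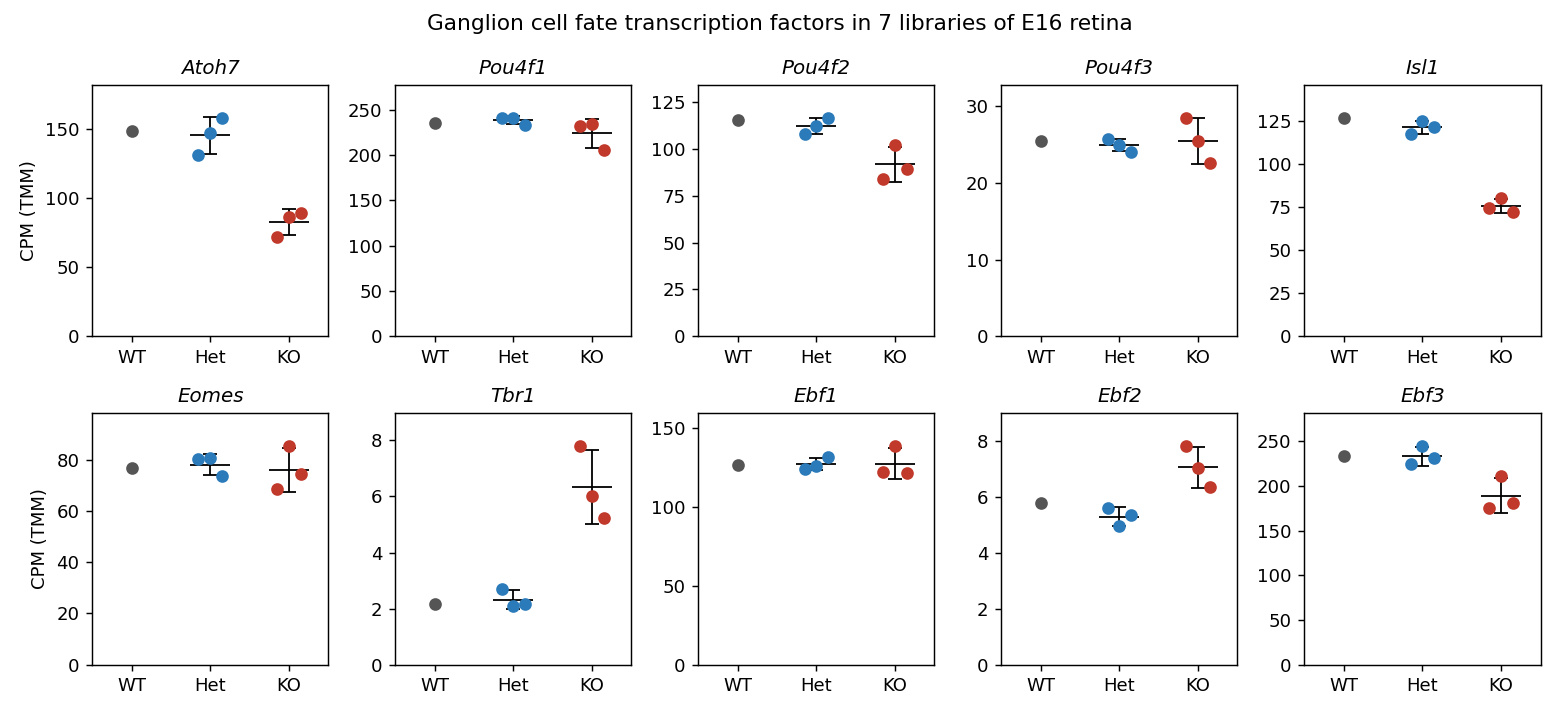
CPM after TMM normalization (y axis, from 0) of each factor in WT (1 library), Het (3) and KO (3). Points are libraries, the long bar is the mean and the error bar the SD over 3 libraries, and Het and KO points are apart for *Atoh7*, *Pou4f2*, *Isl1*, *Tbr1*, *Ebf2* and *Ebf3*.

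*Atoh7*, the competence factor, was at 131, 147 and 158 CPM in Het1 to Het3, at 72.1, 86.6 and 89.0 CPM in KO1 to KO3, and at 148 CPM in WT. Every KO library lay well below every Het library, and WT lay within the Het range. The KO mean of 82.6 ± 9.14 CPM (SD, n = 3) was 56.9% of the Het mean of 145 ± 13.6 CPM, a log2 fold change of -0.81 (95% interval -1.05 to -0.58, adjusted p = 0.00783 by edgeR's quasi-likelihood test with Benjamini-Hochberg adjustment). *Atoh7* is in the study's heat map of selected genes for these same samples, so its change is not independent evidence. The call was made in all 16 alternative analyses, with a highest adjusted p of 0.0436 and log2 fold changes of -0.88 to -0.73 when single libraries were left out. Adjusted p alone, among the 16, dropped only the fold limit and could not end a call. *Atoh7* lies on the chromosome of the floxed gene, and of its 30 tested neighbours within 1 Mb, 1 was called higher and 1 lower in KO (*Hkdc1* and *Sirt1*). The part of linkage to the *Ptbp1* allele in the fall of *Atoh7* was not tested.

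*Isl1*, which acts beside *Pou4f2* in newborn ganglion cells and is also used by amacrine and bipolar cells, was at 117, 125 and 122 CPM in Het1 to Het3 and at 74.5, 80.4 and 72.4 CPM in KO1 to KO3. The libraries of each group were close together with a wide gap between the groups, and WT at 127 CPM lay just above the highest Het library. The mean fell from 121 ± 3.88 to 75.8 ± 4.11 CPM (SD, n = 3), to 62.4% of Het. The log2 fold change was -0.68 (95% interval -0.79 to -0.57, adjusted p = 0.00209 by edgeR's quasi-likelihood test with Benjamini-Hochberg adjustment), with the narrowest standard error of the 10 factors (0.047). *Isl1* was called in all 16 alternatives, with an adjusted p of at most 0.0171 when a library was left out. Of the 4 genes tested within 1 Mb of *Isl1*, 1 was called, *Emb*, which was lower in KO.

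*Pou4f2*, which drives ganglion cell differentiation and axon outgrowth, was at 108, 112 and 117 CPM in Het1 to Het3, at 83.9, 102 and 89.0 CPM in KO1 to KO3, and at 115 CPM in WT. The KO libraries lay below the Het libraries, with KO2 close to them. The KO mean was 81.7% of Het, and the log2 fold change of -0.29 (95% interval -0.47 to -0.12) missed the adjusted threshold (adjusted p = 0.0524, edgeR's quasi-likelihood test with Benjamini-Hochberg adjustment). It was called in 7 of 16 alternatives, DESeq2 among them (log2 fold change -0.30, Benjamini-Hochberg adjusted p = 0.000635), and when KO2 was left out (-0.38, edgeR adjusted p = 0.0236). On simulated counts DESeq2 made 72 false calls and edgeR 8, a limit of the DESeq2 calls of *Pou4f2* and *Ebf3*. *Pou4f2* too is in the study's heat map of these samples.

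*Pou4f1*, the paralog that marks most differentiated ganglion cells, was at 241, 241 and 233 CPM in Het1 to Het3, at 232, 234 and 205 CPM in KO1 to KO3, and at 235 CPM in WT. Its groups overlapped through Het3 and KO2, and the log2 fold change was -0.09 (95% interval -0.22 to 0.04). *Pou4f3*, the rarest of the 3 Pou4f genes and best known from inner ear hair cells, ranged from 24.1 to 25.7 CPM in Het and from 22.5 to 28.5 CPM in KO, and its log2 fold change was 0.03 (95% interval -0.17 to 0.24). Neither was called in any of the 16 alternatives. Both intervals lie wholly above that of *Isl1*, and they leave room for smaller changes of either gene. *Pou4f1* and *Pou4f2* shared 23 sequences of 50 bases, 0.498% and 0.729% of their exon sequence, so few reads could be split between them.

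Ratios of counts within a library compare pairs of these factors free of library scaling. The log2 ratio of *Pou4f2* to *Atoh7* was -0.28, -0.38 and -0.44 in Het1 to Het3 and 0.22, 0.24 and 0.00012 in KO1 to KO3. Every Het library held fewer counts of *Pou4f2* than of *Atoh7*, while KO1 and KO2 held more and KO3 held 11859 and 11858. The mean rose by 0.52, from -0.37 ± 0.082 to 0.15 ± 0.13 (SD, n = 3; two-sided exact permutation p = 0.1, the smallest that 3 against 3 libraries allow). The ratio of *Isl1* to *Pou4f2* went the other way, from 0.11 ± 0.046 in Het to -0.27 ± 0.090 in KO. *Pou4f1* relative to *Pou4f2* was higher in KO by 0.20 and *Eomes* relative to *Pou4f2* by 0.25. Het and KO did not overlap in any of the 4 ratios, each with an exact permutation p of 0.1 (0.1 after Benjamini-Hochberg adjustment over the 4), so none could pass a threshold of 0.05. All 4 contain *Pou4f2*, whose own levels did not overlap between Het and KO, so they are not separate results. The share of other gene pairs without overlap was not computed.

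*Eomes*, a T-box factor of the intrinsically photosensitive ganglion cells, was at 80.1, 80.8 and 73.5 CPM in Het1 to Het3, at 68.5, 85.4 and 74.3 CPM in KO1 to KO3, and at 76.7 CPM in WT. The KO libraries had both the highest and the lowest value, and the log2 fold change was -0.04 (95% interval -0.24 to 0.16). *Tbr1*, the related T-box factor of a small set of ganglion cell subtypes, most of them of the OFF type, was low in every library. It was at 2.70, 2.09 and 2.18 CPM in Het1 to Het3, at 7.80, 6.01 and 5.22 CPM in KO1 to KO3, and at 2.17 CPM in WT. Each KO library lay far above all the Het libraries, and the lowest rested on 696 counts. The KO mean of 6.35 ± 1.32 CPM was 273% of the Het mean of 2.32 ± 0.330 CPM (SD, n = 3), a log2 fold change of 1.45 (95% interval 1.02 to 1.88, adjusted p = 0.00831 by edgeR's quasi-likelihood test with Benjamini-Hochberg adjustment). *Tbr1* was called in all 16 alternatives, with log2 fold changes of 1.27 to 1.57 and adjusted p up to 0.0476 when libraries were left out. The forebrain, where *Tbr1* is abundant, could add RNA to a pool, and 6 forebrain genes tested summed to at most 2.12 CPM in any library. Of these, *Neurod6* was called higher in KO (0.303 ± 0.014 CPM in Het, 0.601 ± 0.094 in KO), and the most abundant others, *Emx2* and *Gsx2*, were not called, with means of at most 0.485 CPM in either group. *Neurod6* lost its call without Het2, Het3, KO1 or KO2. The forebrain genes summed to 0.775 to 1.18 CPM in the KO libraries and to 0.619 to 2.12 CPM in Het. The part of such RNA in the rise of *Tbr1* was not tested. *Slc4a10* was the 1 called gene among the 9 tested within 1 Mb of *Tbr1*, and it too was higher in KO.

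The Ebf genes encode helix-loop-helix factors with overlapping roles in ganglion, amacrine and bipolar cell differentiation, and the 3 members moved in different ways. *Ebf1* was at 124, 126 and 131 CPM in Het1 to Het3 and at 122, 139 and 122 CPM in KO1 to KO3, with a log2 fold change of 0.0032 (95% interval -0.13 to 0.14). *Ebf2* was at 5.60, 4.96 and 5.35 CPM in Het1 to Het3, at 7.83, 7.03 and 6.35 CPM in KO1 to KO3, and at 5.80 CPM in WT. Its KO libraries were all higher than its Het libraries and than WT, by a log2 fold change of 0.41 (95% interval 0.17 to 0.66, adjusted p = 0.0474 by edgeR's quasi-likelihood test with Benjamini-Hochberg adjustment). This call was narrow. It was made in 7 of 16 alternatives, among them adjusted p alone, which could not end it. The call was lost with RLE normalization (adjusted p = 0.0508), without a filter (0.0617) and with glmTreat (0.373), all fitted with edgeR. Leaving out a library kept it only without KO3 (0.49, edgeR adjusted p = 0.0329) and ended it without any of the others, where the log2 fold change was 0.33 to 0.46 and the adjusted p 0.0728 (without Het1), 0.150 (Het2), 0.134 (Het3), 0.0880 (KO1) and 0.130 (KO2).

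*Ebf3*, the most abundant of the 3, was at 224, 245 and 231 CPM in Het1 to Het3, at 175, 211 and 181 CPM in KO1 to KO3, and at 234 CPM in WT. Its KO libraries lay below its Het libraries, as for *Pou4f2* with KO2 nearest to Het, and the KO mean was 81.0% of Het. The log2 fold change of -0.30 (95% interval -0.48 to -0.12) missed the adjusted threshold by little (adjusted p = 0.0503, edgeR's quasi-likelihood test with Benjamini-Hochberg adjustment), and 8 of 16 alternatives called it, DESeq2 and the fit without KO2 (-0.39, edgeR adjusted p = 0.0263) among them. *Ebf3* shares 355 bases of exon with the antisense gene *Gm45278*, 3.85% of its exon length, and *Ebf2* shares 424 bases with the antisense gene *Gm10860* (6.12%). The sources used here do not say whether the counting used strand, so these stretches cannot be assigned to either partner. *Gm45278* had a log2 fold change of 0.64, opposite in sign to that of *Ebf3*.

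**Figure D2:**
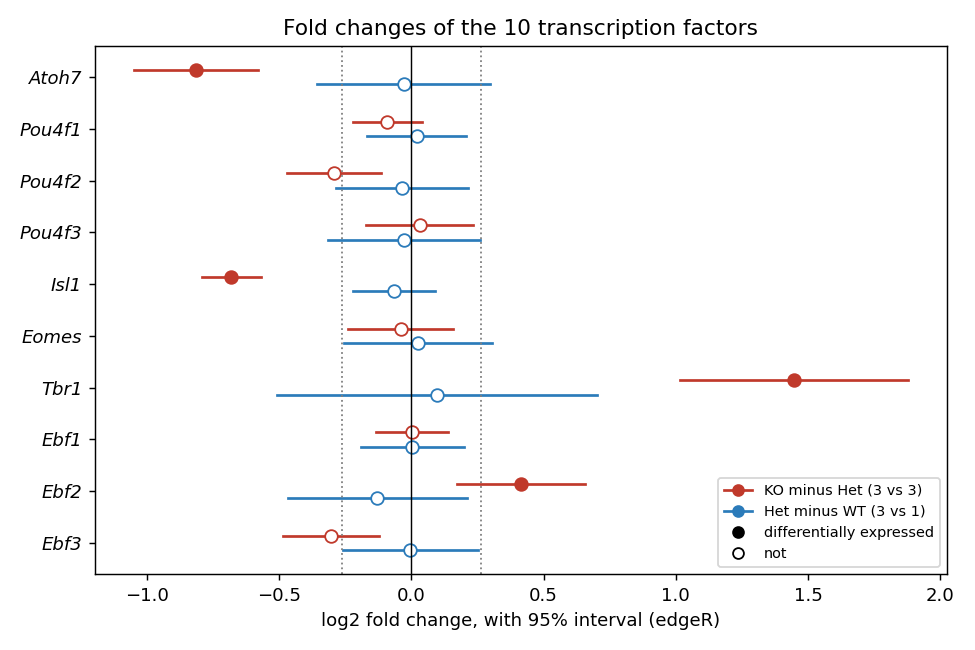
Log2 fold changes of the 10 factors (x axis) with 95% intervals from edgeR, KO minus Het in red and Het minus WT in blue. Filled points were differentially expressed, dotted lines mark ±0.263, and *Atoh7*, *Isl1*, *Tbr1* and *Ebf2* are filled for KO minus Het while no point is filled for Het minus WT.

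Het was compared with the single WT library for the effect of 1 lost *Ptbp1* copy. *Ptbp1* itself (log2 fold change -0.79) and *Ptbp2*, its neuronal paralog (0.37), were not called. The standard error of *Ptbp1* was 0.79, in a fit that also holds its KO libraries at 6.04 to 46.9 CPM. Those of the factors were 0.066 (*Isl1*) to 0.25 (*Tbr1*), so the miss of *Ptbp1* does not carry over to them. With 1 WT library, the comparison does not show that the factors were unaffected. Between Het and WT, 0 of the 10 were called by edgeR's quasi-likelihood test, 0 had an unadjusted p under 0.05 and 0 were called by DESeq2, while 0.005% of all genes tested were called and 3.41% had an unadjusted p under 0.05. The log2 fold changes were between 0.0031 (*Ebf3*) and 0.13 (*Ebf2*) in size. The WT library lay within the Het range for 8 factors and above it for *Isl1* and *Ebf2*. The intervals of this comparison are wide for the low genes, from -0.51 to 0.70 for *Tbr1* and from -0.47 to 0.21 for *Ebf2*, and -0.36 to 0.30 for *Atoh7*. The Het libraries serve in both comparisons, so these are not independent of each other.

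Divided by annotated exon length, so that genes can be set beside each other, *Atoh7* was the most abundant factor in Het at 89.1 ± 8.32 CPM per kb (SD, n = 3). Then came *Pou4f1* at 51.1, *Pou4f2* at 35.0, *Isl1* at 30.7, *Ebf3* at 25.3, *Eomes* at 18.8, *Ebf1* at 13.0 and *Pou4f3* at 10.4 CPM per kb, with *Ebf2* at 0.766 and *Tbr1* at 0.424 CPM per kb far below. No neighbours in this order had overlapping Het libraries. In KO, *Atoh7* at 50.7 ± 5.61 CPM per kb overlapped *Pou4f1* at 47.9 ± 3.46 CPM per kb. *Isl1* at 19.1 CPM per kb dropped below *Ebf3* at 20.5 CPM per kb and overlapped both it and *Eomes* at 18.3 CPM per kb. At the low end *Tbr1* at 1.16 CPM per kb overlapped *Ebf2* at 1.02 CPM per kb, in place of the gap seen in Het. The exon lengths are those of all annotated transcripts joined, which the retina need not use in full.

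**Figure D3:**
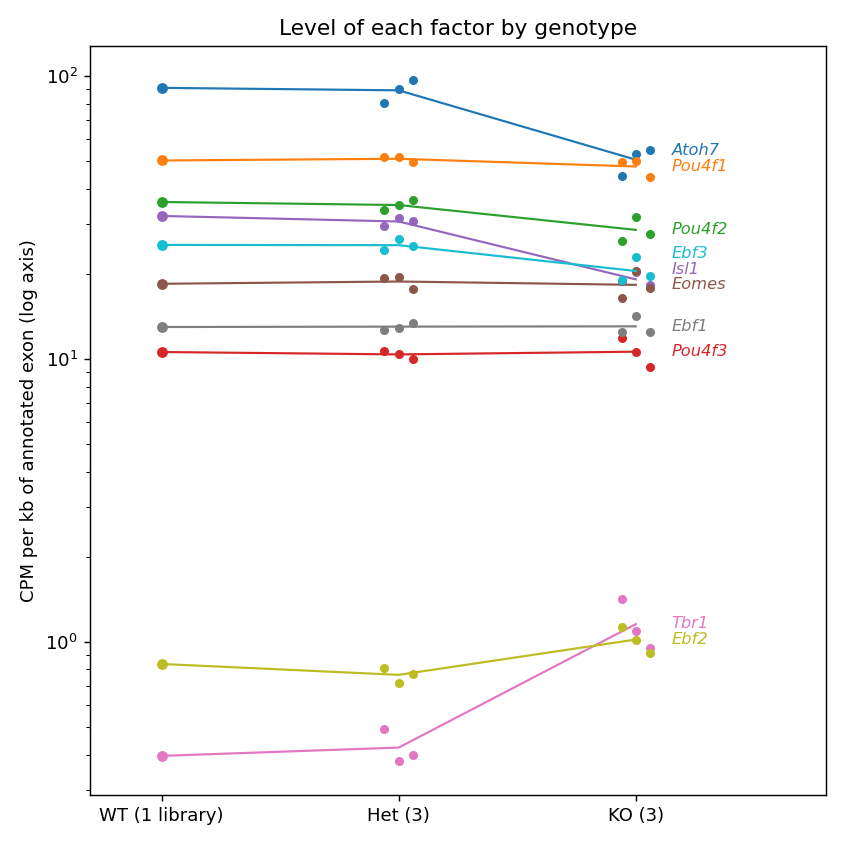
Level of each factor in CPM per kb of annotated exon (log y axis) in WT (1 library), Het (3) and KO (3), with points for libraries and lines joining group means. *Atoh7* stands alone at the top in WT and Het and overlaps *Pou4f1* in KO, while *Tbr1* meets *Ebf2* at the bottom.

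For the first 3 factors called, the genes with the most similar profile were sought among 13749 genes with a mean of at least 1 CPM, by the root-mean-square difference of centred log2(CPM + 0.5) values over the 7 libraries. *Atoh7* was most like *Fgf3* (difference 0.057), an FGF ligand of the early retina, *Gal* (0.064), which encodes the neuropeptide galanin, and *Ccer2* (0.066). *Fgf3* went from a mean of 73.1 CPM in Het to 43.9 CPM in KO, a log2 fold change of -0.74. *Isl1* was most like *Foxp4* (0.045), a forkhead factor with means of 110 and 67.0 CPM, then *Ppp1r14a* (0.069) and *Nhlh1* (0.073), a helix-loop-helix factor of newborn neurons. *Tbr1* was most like the long noncoding gene *D030068K23Rik* (0.089), *Slc18a3* (0.11), the vesicular acetylcholine transporter of cholinergic amacrine cells, and *Slc25a47* (0.12). All of these genes were themselves called between Het and KO, which their selection for likeness to a called factor in the same libraries makes likely. The measure describes their levels in these libraries alone.

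Among 17 factors of progenitors and neurogenesis that act around *Atoh7*, 5 were called higher in KO and 0 lower. Over all genes tested these shares were 4.01% and 3.21%. The median log2 fold change of the 17 was 0.06. The proneural factor *Neurod1* rose from 163 ± 3.37 to 203 ± 5.53 CPM (log2 fold change 0.32), the Notch ligand *Dll1* from 53.7 ± 0.259 to 67.0 ± 2.31 CPM (0.32) and the Notch effector *Hes5* from 72.0 ± 5.49 to 89.7 ± 7.72 CPM (0.32). The receptor *Notch1* rose by 0.29 on the log2 scale. The abundant progenitor factor *Pax6* (log2 fold change -0.05) was not called. *Neurog2* (-0.18, adjusted p = 0.0316, edgeR's quasi-likelihood test with Benjamini-Hochberg adjustment) fell without overlap, by less than the fold limit. *Hes1* (-0.16) was lower without overlap and was not called. *Hes5* and *Hes1* are in the study's heat map of these samples. Without Het2 or without KO2, 2 of the 17 were called, without Het3 or KO1 3. Calls over all genes fell too, from 1445 to 386 without Het2.

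Among 32 other transcription factors of ganglion cells, 3 were called higher and 6 lower, with a median log2 fold change of -0.15. Of all genes tested 4.01% were called higher and 3.21% lower. *Nhlh1* fell from 14.8 ± 0.383 to 8.54 ± 1.12 CPM (log2 fold change -0.80) and the POU factor *Pou3f1* from 81.0 ± 2.72 to 57.3 ± 3.90 CPM (-0.50), and *Irx2*, *Dlx1*, *Ebf4* and *Foxp1* were the other 4 that fell. The Iroquois factor *Irx5* rose from 27.9 ± 2.34 to 41.0 ± 3.45 CPM (0.56), opposite to *Irx2*, and *Bhlhe22* and *Myt1l* rose too. The Sox factors that promote ganglion cell differentiation were the most abundant, and *Sox4* (-0.0029), *Sox11* (-0.08) and *Sox12* (-0.19) were not called. The study names *Foxp1* for these samples. Without Het2 or without Het3, when calls over all genes fell too, 2 of the 32 were called. *Isl2*, the paralog of *Isl1*, was at 45.4 to 48.4 CPM in Het and 40.9 to 46.9 CPM in KO, overlapping between the groups.

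Among 25 ganglion cell effector genes, which carry out what the factors specify, 3 were called higher and 4 lower, with a median log2 fold change of -0.06. Of all genes tested 4.01% were called higher and 3.21% lower. The axonal adhesion gene *Cntn2* was at 422, 463 and 476 CPM in Het1 to Het3 and at 167, 258 and 204 CPM in KO1 to KO3, a log2 fold change of -1.11. The neuronal tubulin *Tubb3* fell from 1729 ± 23.6 to 1355 ± 105 CPM (-0.35), and *Elavl4* and *Gap43* fell too. *Thy1*, a surface marker of ganglion cells, rose from 24.6 ± 3.71 to 48.9 ± 12.4 CPM (0.99), the nicotinic receptor subunit *Chrna6* from 10.8 ± 0.405 to 19.2 ± 4.37 CPM (0.83) and the heavy neurofilament *Nefh* by 0.54 on the log2 scale. The abundant *Ina* (-0.02) and *Mapt* (0.04) were not called, nor were *Rbpms* (-0.09) and *Slc17a6* (0.03), which nearly all ganglion cells express. *Rbpms* was lower in KO without overlap between the groups. *Rbpms2* (-0.26, adjusted p = 0.0274, edgeR's quasi-likelihood test with Benjamini-Hochberg adjustment) fell by less than the fold limit. *Sncg* (-0.27) was lower and *Nefl* (0.21) higher without overlap, and neither was called. *Elavl4* is in the study's heat map of these samples. Without Het2 or without Het3, when calls over all genes fell too, 1 of the 25 was called.

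**Figure D4:**
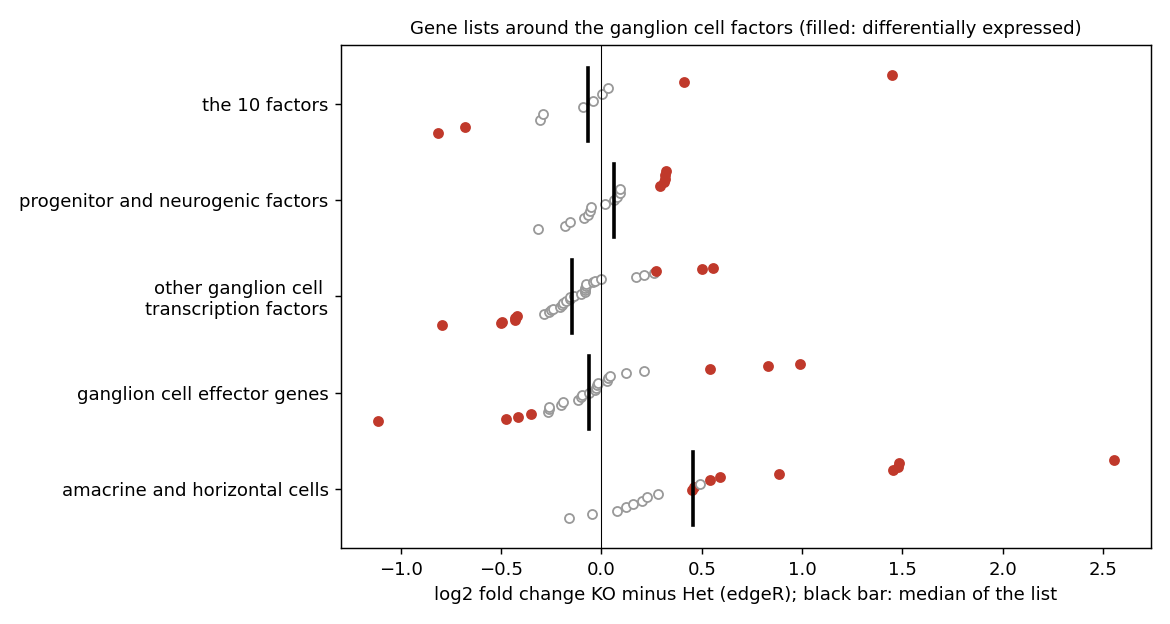
Log2 fold change KO minus Het (x axis, edgeR) of each tested gene in the 10 factors and 4 gene lists, with filled points for differentially expressed genes and black bars for medians. The medians lie at -0.065 for the factors, 0.06 for progenitor and neurogenic factors, -0.15 for other ganglion cell factors, -0.06 for effector genes and 0.46 for amacrine and horizontal cell genes.

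Amacrine and horizontal cells share several of these factors, among them *Isl1*, *Ebf1*, *Ebf2* and *Ebf3*, while their markers, as a list, went up. Of 18 such genes, 9 were called higher in KO and 0 lower, beside 4.01% and 3.21% of all genes tested. Their median log2 fold change was 0.46, and their summed level was 737 to 767 CPM in Het and 910 to 984 CPM in KO. *Slc18a3* went from 2.05 ± 0.549 to 5.71 ± 1.28 CPM (log2 fold change 1.48), *Neurod2* from 0.996 ± 0.245 to 2.79 ± 1.11 CPM (1.48) and the rare *Chat* from 0.054 ± 0.016 to 0.322 ± 0.052 CPM (2.55). *Tfap2b* rose from 201 ± 12.8 to 291 ± 19.8 CPM (0.54), while the abundant *Foxn4* (-0.05) and *Prox1* (0.12) were not called. Without Het2 4 of the 18 were called, without Het3 5, when calls over all genes fell too. The part of these cells in the levels of *Isl1*, *Ebf2* and *Tbr1* was not tested.

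RNA of tissues around the retina was followed in the same way, beside 7.22% of all genes tested that were called. Of 13 blood vessel genes, *Kdr* was called higher (368 ± 7.10 CPM in Het, 499 ± 54.0 in KO) and *Pdgfrb* (23.0 ± 0.683 and 17.3 ± 1.74 CPM) and *Notch3* (80.1 ± 3.23 and 64.9 ± 2.02 CPM) lower. Their median log2 fold change was -1.40, away from that of *Kdr*, which retinal progenitors also express. Endothelial *Cdh5*, at 6.80, 3.21 and 9.77 CPM in Het1 to Het3 and at 0.988, 0.555 and 4.41 CPM in KO1 to KO3, was not called, and pericyte *Rgs5* was at 27.8% of Het in KO and not called either. KO1 and KO2 were the lowest libraries for both. The part of vessel RNA in the levels of the factors was not tested. Without Het2 or without Het3, when calls over all genes fell too, 1 of the 13 was called, and without KO3 8. Of 14 muscle genes tested 0 were called by edgeR (0 by DESeq2, 9 at an unadjusted p under 0.05), and their median log2 fold change of -4.70 rested on Het1, where all 14 were highest. Without Het1, 1 of the 14 was called. Of 14 lens and pigment epithelium genes tested, the median log2 fold change was -2.37, *Foxe3* was called lower (1.41 ± 1.32 CPM in Het, 0.005 ± 0.0087 in KO), and *Pmel*, the most abundant, was not called. *Foxe3* is labelled in the study's volcano plot of these samples, 0 of the 14 were called without Het2, Het3, KO1 or KO2, and 3 without KO3. Without Het1 the log2 fold changes of the called factors were -0.88 (*Atoh7*), -0.70 (*Isl1*), 1.57 (*Tbr1*) and 0.46 (*Ebf2*), each at least as large as with it.

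**Figure D5:**
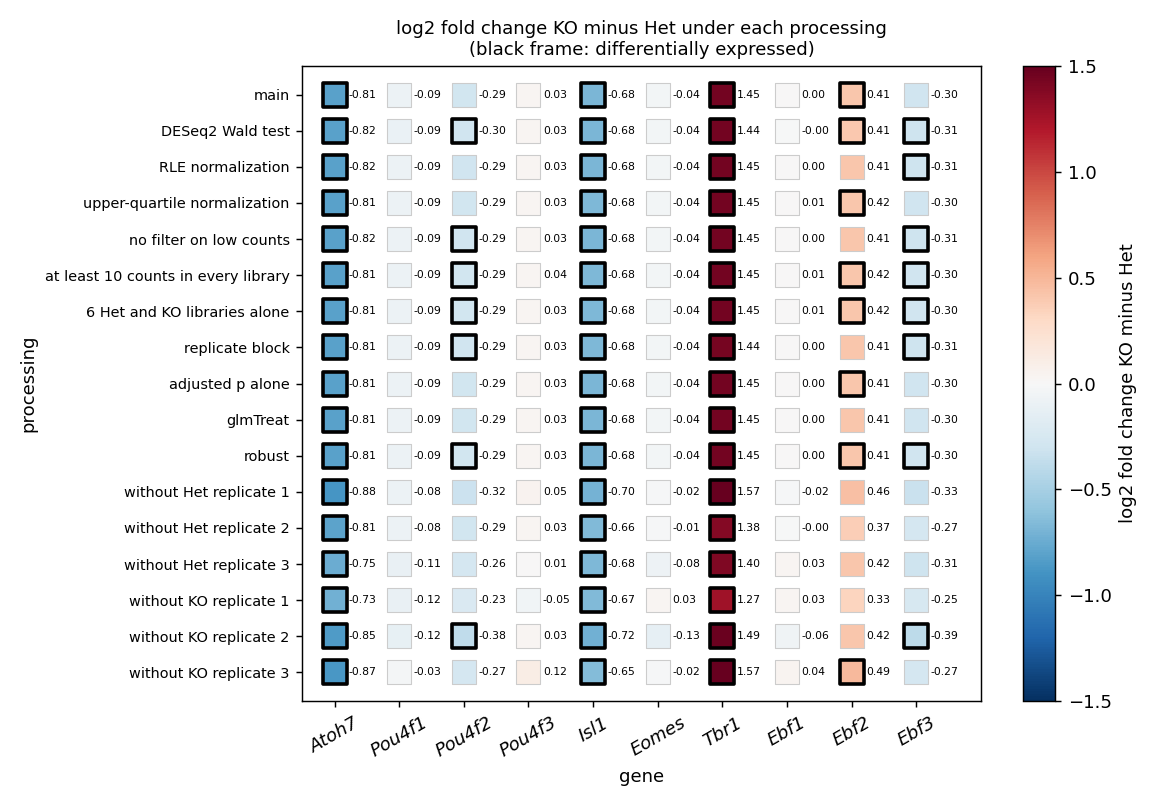
Log2 fold change KO minus Het of each factor (columns, colour and printed value) in the reported analysis and under 16 alternatives (rows), with a black frame where the factor was differentially expressed. *Atoh7*, *Isl1* and *Tbr1* are framed in all rows, *Ebf2*, *Ebf3* and *Pou4f2* in some, and *Pou4f1*, *Pou4f3*, *Eomes* and *Ebf1* in none.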

How the data were processed

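RNA from 36 E16 retinas, pooled by genotype, was sequenced as 7 libraries. For the table used here the authors ran STAR against GRCm38 and then featureCounts per gene, and the deposited values are raw counts, in whole numbers and not normalized. The table has 0 other value columns. Strand setting and treatment of reads that map to several places are not given in the sources used here. The study's methods name a column kit for RNA extraction, the sample labels TRIzol. The 10 factors and the 8 gene lists (progenitor and neurogenic factors, other ganglion cell transcription factors, ganglion cell effector genes, amacrine and horizontal cells, blood vessels, skeletal muscle, lens and pigment epithelium, forebrain) were chosen with earlier results of these data known.

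With edgeR 4.0.16 (R 4.3.3), counts were modelled on 20019 genes kept by filterByExpr with its defaults, with TMM factors of 0.988 to 1.03, in 1 quasi-likelihood fit of all 7 libraries with a mean per genotype. The study used DESeq2, and here DESeq2 1.42.0 was an alternative. Adjusted p-values are Benjamini-Hochberg over all genes tested. The 16 alternatives were a robust fit, glmTreat, adjusted p alone, DESeq2, a fit with a replicate block, a fit of only the 6 Het and KO libraries, a minimum of 10 counts per library or no filter, normalization by RLE or by upper quartile, and each Het and KO library left out. Adjusted p alone was the reported fit without the fold limit, so a called gene could not lose its call there. On simulated counts for KO against Het, edgeR recovered 88 of 100 genes changed by a log2 of 1 and 55 of 100 changed by 0.5, with 8 false calls among 19771 genes, and DESeq2 97 and 76 with 72 false calls among 16842 genes. No 2 replicates were copies: the variance between them was 14.1 to 53.6 times that of counting.

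Named genes are all 10 factors, *Ptbp1*, of each list the 3 called genes with the largest change and the 3 most abundant, and the 3 genes most like each of the first 3 factors called. Other genes named (further called genes of a list, called neighbours, *Isl2*, *Cdh5*, *Rgs5*, *Rbpms*, *Slc17a6*) were chosen after their values were seen or are fixed markers. *Neurog2*, *Hes1* and *Cldn5* too were chosen after their values were seen. Positions and exon lengths come from GENCODE M21 on GRCm38, while the study used M10 on the same build. Windows before gene starts are RefSeq's (GRCm38.p6). Single-cell data, splicing and immunostaining were not analysed here. The results for 2 genes of the lists are not reported here.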

Additional observations from a re-analysis of the deposited data

How the results depend on the processing

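The calls of *Atoh7*, *Isl1* and *Tbr1* held under all 16 alternatives, of which adjusted p alone could not end them, and the 4 ratios kept their direction. The number of factors called (4) was 6 with DESeq2, with at least 10 counts, with the 6 Het and KO libraries alone and with a robust fit, 5 without a filter, 3 with glmTreat, and 3 to 5 when single libraries were left out. Over all genes, 1445 calls between KO and Het became 2221 with adjusted p alone and 217 with glmTreat, and 386 (without Het2) to 1673 when libraries were left out, with 496 without Het3 and 612 without KO2. The 1 call between Het and WT became 39 with DESeq2, 2 without a filter and 0 with at least 10 counts, and 1 to 2 when libraries were left out. With the replicate number as a block, 5 factors and 1268 genes were called, *Pou4f2* and *Ebf3* gained and *Ebf2* lost its call. Same-numbered Het and KO libraries deviated with correlations of -0.13, 0.27 and 0.030. Pairs with unlike numbers ran from -0.38 (Het2 and KO3) to 0.25 (Het2 and KO1). With 3 libraries a group, these values cannot decide whether the numbers pair them. Changes near 0 turned sign: for KO against Het, *Ebf1* was at -0.00052 with DESeq2 and at -0.062 to 0.038 when libraries were left out, *Pou4f3* at -0.055 to 0.12 and *Eomes* at -0.13 to 0.032. For Het against WT, leaving out libraries gave -0.094 to 0.041 for *Atoh7*, -0.023 to 0.17 for *Tbr1*, -0.040 to 0.026 for *Ebf3* and -0.020 to 0.024 for *Ebf1*. The cause was not tested. The ratio of *Pou4f1* to *Pou4f2* gave exact permutation p of 0.1 to 0.3 when a library was left out. Of the gene lists, 0 to 2 genes each were called with glmTreat, the 3 blood vessel calls became 5 with DESeq2 and 6 with the replicate block, and the 1 lens and pigment epithelium call became 2 with DESeq2 and 0 with at least 10 counts or a robust fit. With 3 pools a group, changes of the size of *Pou4f2* and *Ebf3* fell on either side of the threshold. The factors held at least 249 counts in each library, and a fit at lower depth was not run.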
